A study of Mus musculus with 12 samples.

Results

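Lung cells were captured by Siglec F, a surface lectin of alveolar macrophages, from mice with an intact liver or after most was resected. The genes described here are nuclear genes named as subunits of the mitochondrial respiratory chain and ATP synthase. They were every gene on the array whose symbol began with Ndufa, Ndufb, Ndufc, Ndufs or Ndufv and a digit, with Uqcr, with Cox4 to Cox8 or with Atp5, or was Sdha, Sdhb, Sdhc or Sdhd. This rule, which used names and no measured value, found 84 of the 19505 genes measured: 37 of complex I, 4 of complex II, 8 of complex III, 18 of complex IV and 17 of complex V, each with 1 probe set. No member passed an adjusted p of 0.05 at any day. On the means of all arrays most members lay slightly below intact, with a median log2 difference of -0.21 on day 1, -0.12 on day 3 and -0.24 on day 7. Without the 3 arrays whose exon and intron controls separated least, 1 of each day, the medians were 0.04, 0.11 and -0.07. Most members read low on these arrays, and the limit for leaving them out was set after values were seen.

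The respiratory chain sits in the inner mitochondrial membrane. Complex I takes electrons from NADH and complex II takes them from succinate, ubiquinone carries them to complex III, cytochrome c carries them on to complex IV, and ATP synthase, often counted as complex V, uses the proton gradient that complexes I, III and IV build to make ATP. Most subunits are encoded in the nucleus and a few core subunits in mitochondrial DNA. Alveolar macrophages live in an oxygen-rich space, clear surfactant lipid and are known for relying on fatty acid oxidation and oxidative phosphorylation more than many other macrophages do.

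The cells came from lungs of male mice given as C57 Black, whose age is not given in the sources used here, and were captured on magnetic beads with an antibody to Siglec F, a surface lectin of alveolar macrophages that eosinophils also carry. The controls had an intact liver, and the other groups were collected 1, 3 and 7 days after 70% of the liver was resected. Each of the 4 groups held 3 samples named as biological replicates, and each sample was 1 Clariom S mouse array. Whether a sample was 1 mouse or a pool is not stated, so p-values measure the spread between these samples, and the labels describe no sham operation in the control group. The treatment text also carries a line on macrophages cultured with other cells or growth factors, which no sample's own label uses.

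The arrays that stood apart were replicate 2 of day 1, replicate 1 of day 3 and replicate 2 of day 7. On these the exon control probe sets separated least from the intron controls, with an area under the curve of 0.809 to 0.837 against 0.852 to 0.888 on the other 9. They are called weakly separating here, and the members' medians and differences that rest on them are also given without them. Of 15 alveolar macrophage markers 13 were measured, and all 13 were above the background limit. This limit was the 95th percentile of the intron controls, averaged over a group's arrays. A gene counted as above it when its mean passed the limit in at least 1 group. The mean level of these markers spanned 9.01 to 9.21 on intact arrays, 8.41 to 9.24 on day 1, 8.68 to 9.04 on day 3 and 8.82 to 9.32 on day 7. Siglecf itself read 7.89 to 8.94 over the 12 arrays. Marker levels of some other cell types lay apart from intact on some or all days, which was described and not tested. The 12 type 2 alveolar cell markers averaged 6.46 to 6.85 on intact arrays against 4.12 to 6.12, 5.47 to 6.40 and 5.25 to 5.54 on days 1, 3 and 7, and the 18 neutrophil markers measured of 19 averaged 6.42 to 6.69 against 6.66 to 7.59, 6.82 to 7.62 and 7.11 to 7.80. The 15 endothelial markers averaged 5.69 to 6.45 on intact arrays against 3.96 to 5.56, 4.63 to 5.89 and 4.58 to 5.52. The 16 fibroblast and smooth muscle markers averaged 4.56 to 5.13 on intact arrays against 3.10 to 4.13, 3.51 to 4.29 and 3.65 to 3.89. The 8 eosinophil markers averaged 4.18 to 5.06 on intact arrays against 4.21 to 4.52, 4.21 to 5.16 and 4.65 to 5.82, and overlapped intact on every day. The part of these cell types in the results below was not tested. In such bulk samples fewer cells of a type and less RNA per cell cannot be told apart.

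Promoters of respiratory chain genes are known for binding sites of NRF-1, of ETS-family factors such as GABP, and of YY1. RefSeq promoter windows of mouse build GRCm38.p6, running from 250 bases before to 50 bases after each gene's start, were found for 69 of the 84 members. The letters GCGCATG, a core of the NRF-1 site, were present on either strand in 13 of the 69 (18.8%), against 4.41% of all 27025 genes in the same table. The ETS letters CCGGAAG were present in 17 (24.6%), against 9.93%, and the YY1 letters AAGATGG in 11 (15.9%), against 7.28%. At least 1 of the 3 was present in 33 members (47.8%), against 19.5% of all genes, 8 members held 2 or more, and none held all 3. ETS letters were found in 6 of 15 complex V genes and 4 of 33 complex I genes, and YY1 letters in 7 of 33 complex I genes and in 0 of 5 complex III genes. A match of letters is a description and shows no binding. One promoter of each complex is printed below to show where such letters lie. Whether the letters bear on the levels of these genes was not tested. Each sequence holds the 100 bases before the gene's start, 5′ to 3′ on the gene's strand, with the searched letters in capitals.
Ndufa8: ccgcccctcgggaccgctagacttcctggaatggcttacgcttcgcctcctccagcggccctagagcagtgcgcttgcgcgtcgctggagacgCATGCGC
Sdhb: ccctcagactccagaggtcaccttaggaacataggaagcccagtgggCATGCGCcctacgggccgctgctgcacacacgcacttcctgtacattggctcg
Uqcrh: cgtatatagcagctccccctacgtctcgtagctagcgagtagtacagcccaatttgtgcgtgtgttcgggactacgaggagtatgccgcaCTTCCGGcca
Cox5b: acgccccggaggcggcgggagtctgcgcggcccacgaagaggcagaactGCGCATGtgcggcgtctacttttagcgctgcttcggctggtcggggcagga
Atp5j: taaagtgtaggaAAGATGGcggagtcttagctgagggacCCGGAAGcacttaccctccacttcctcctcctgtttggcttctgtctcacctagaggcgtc
The Ndufa8 stretch is chr2:36049339-36049438 on the minus strand, and its NRF-1 letters, on the opposite strand, begin 7 bases before the start. The Sdhb stretch is chr4:140961171-140961270 on the plus strand, with NRF-1 letters on the opposite strand from 53 bases before the start. The Uqcrh stretch, chr4:116075071-116075170 on the minus strand, holds ETS letters on the opposite strand from 10 bases before the start. The Cox5b stretch, chr1:36691387-36691486 on the plus strand, holds NRF-1 letters on its own strand from 51 bases before the start. The Atp5j stretch, chr16:84834977-84835076 on the minus strand, holds YY1 letters from 88 and ETS letters from 61 bases before the start, both on its own strand. A further start listed for Atp5j had none of these letters in its 100 bases.

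Over the 4 groups the limma F test, adjusted by Benjamini-Hochberg over 22206 probe sets, called 0 members, with a smallest adjusted p of 0.746, against 2 of all probe sets (0.00901%). Unadjusted p under 0.05 was reached by 0 members and by 7.34% of all probe sets. In the comparison of day 1 with intact the test called 0 members (0% of all probe sets), with a smallest adjusted p of 0.559, and 0 members had an unadjusted p under 0.05 against 8.94% of all probe sets. On day 3 it called 0 members (0.0045% of all), with a smallest adjusted p of 1, and 0 members had an unadjusted p under 0.05 against 4.46%. On day 7 it called 0 members (0.018% of all), with a smallest adjusted p of 0.757, and 1 member, Cox4i2, had an unadjusted p under 0.05 against 5.7%. Every other setting tried, which included array weights and leaving out arrays, also called 0 members. Without the 3 weakly separating arrays the test again called 0 members on days 1, 3 and 7, while it called 0.32%, 1.13% and 1.26% of all probe sets, and the smallest adjusted p of a member was 0.326, 0.432 and 0.312. The 3 comparisons share the intact arrays, so their values are given side by side and are not independent of each other.

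With all arrays in, most member means lay below intact. On day 1 69 of 84 members were below intact, on day 3 58 and on day 7 70. Bright genes in general also lay below intact more often than above. Of the 5264 genes above the background limit, 73.7% were below intact on day 1, 54.5% on day 3 and 61.1% on day 7, with median differences of -0.21, -0.04 and -0.07. For the 64 members above that limit the shares were 84.4%, 71.9% and 89.1%, and the medians -0.26, -0.14 and -0.25. Passing the limit in 1 group was enough, and Sdha and Ndufb7 passed it in the intact group only. Such genes were picked where they were high, so these shares and medians cannot by themselves show lower levels after resection. Without the 3 weakly separating arrays 38 of 84 members were below intact on day 1, 24 on day 3 and 51 on day 7. The shares of the 64 members above the limit were then 40.6%, 23.4% and 65.6%, and those of the 5264 genes 52.4%, 44.8% and 45.4%. On day 3 the median of the members then lay above 0, at 0.11, beside 0.03 for the genes above the limit.

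**Figure D1:**
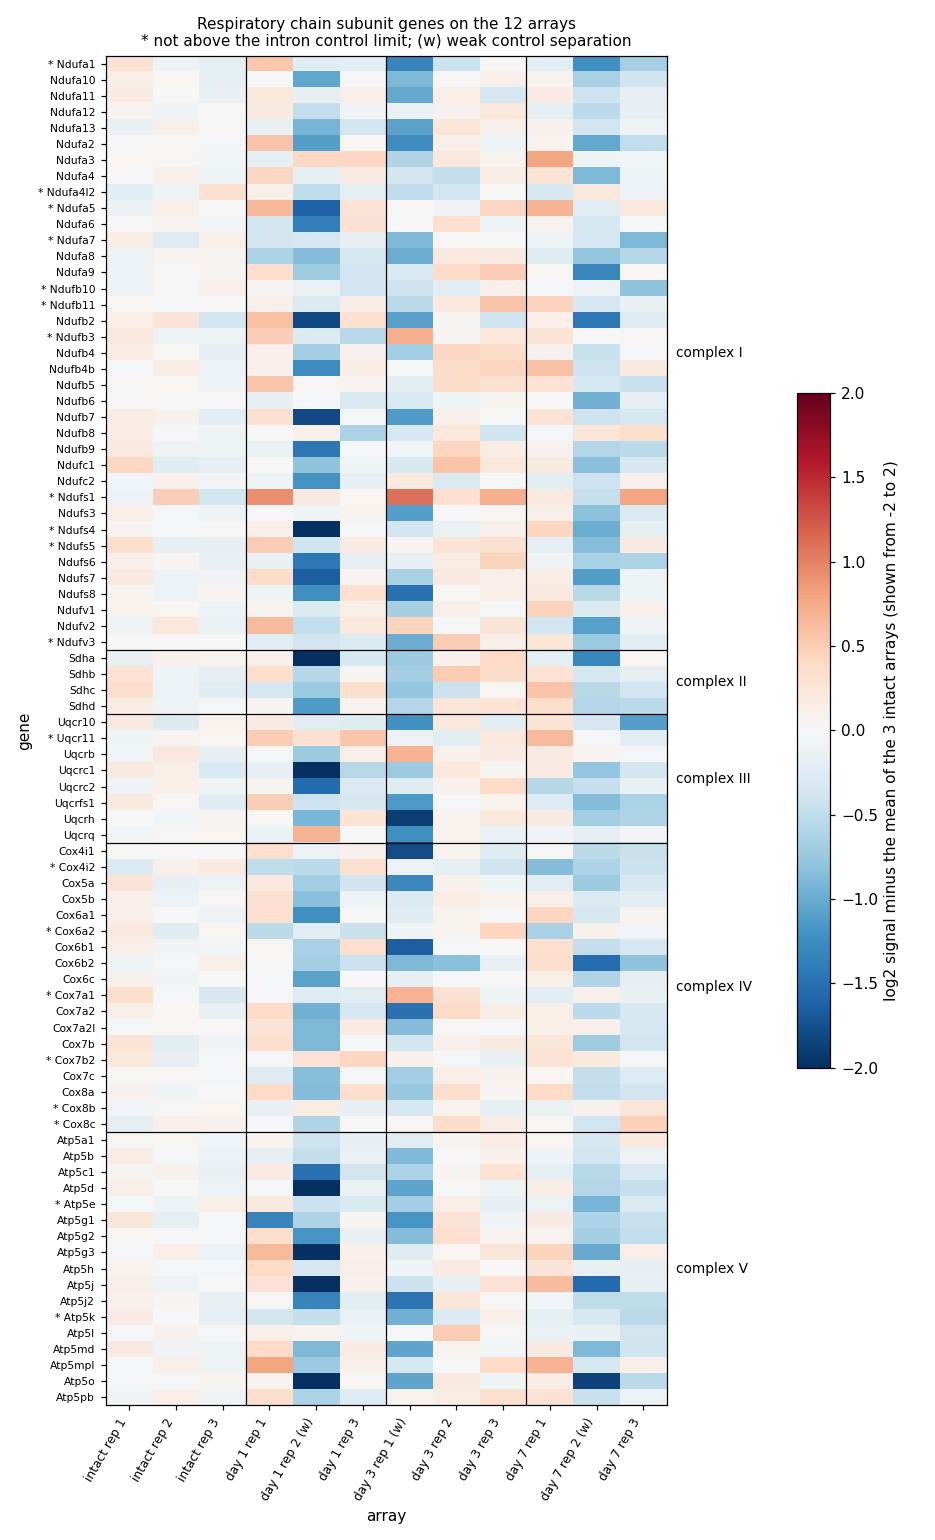
Log2 signal of each of the 84 genes on each of the 12 arrays, minus the mean of the gene's 3 intact arrays, with genes in rows by complex and arrays in columns. The columns of the 3 weakly separating arrays, marked (w), are mostly blue in every complex, while the remaining arrays of the same days show both colours. Day 7 replicate 3 is not one of the 3, yet its mean lies below every intact array in each of the 5 complexes, for complex V at 7.33 against 7.53 to 7.66.

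Array by array, the mean of the 84 genes was 6.53, 6.46 and 6.40 on the intact arrays, 6.57, 5.68 and 6.42 on day 1, 5.90, 6.55 and 6.56 on day 3 and 6.57, 5.91 and 6.24 on day 7, in the order of replicates 1 to 3. The remaining day 1 and day 3 arrays thus lay at or near the intact range, and day 7 replicate 3 lay below it. Day 1 replicate 2 carried the lowest of the 12 values for 36 members (42.9%), day 3 replicate 1 for 26 (31.0%) and day 7 replicate 2 for 10 (11.9%). Of the 5264 genes above the background limit, 48.6%, 15.1% and 14.2% had their lowest value on these arrays. On intact arrays the median SD of a member was 0.13, against 0.49 on day 1, 0.42 on day 3 and 0.39 on day 7, and 72 of 84 members had their smallest SD in the intact group. The genes above the limit had median SDs of 0.15, 0.40, 0.31 and 0.31 in the same order.

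**Figure D2:**
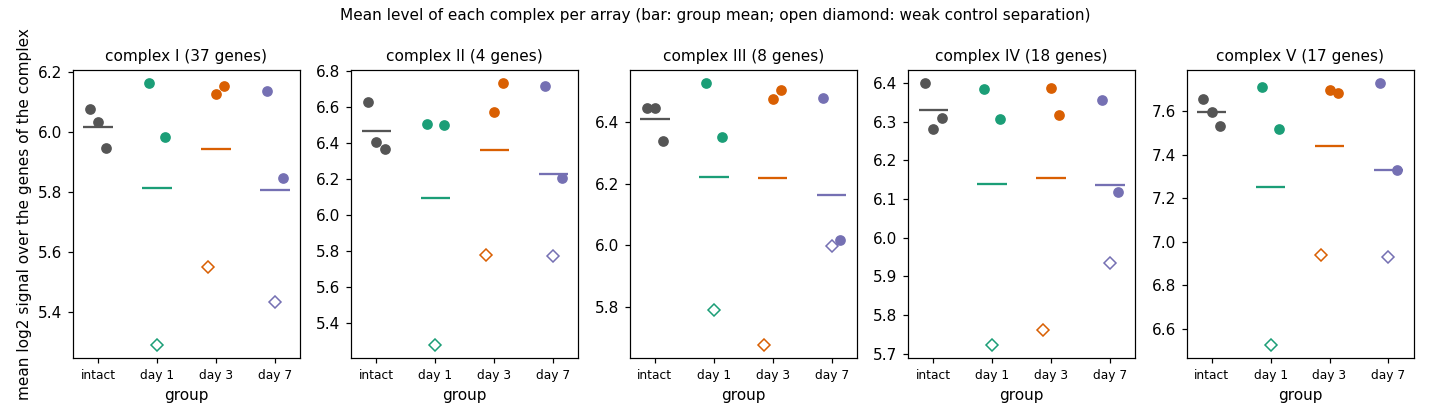
Mean log2 signal over the genes of each complex on each array, by group, with bars for group means and open diamonds for the 3 weakly separating arrays. In complex V the diamonds lie at 6.52, 6.94 and 6.93, below the intact arrays at 7.53 to 7.66, and in every complex they lie below all intact arrays.

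How low the set lay on each of these arrays differed. Against the mean of the other 2 arrays of its group, day 1 replicate 2 was lower for 74 of 84 members with a median of -0.72, day 3 replicate 1 for 76 with -0.71 and day 7 replicate 2 for 71 with -0.45. The 64 members above the background limit had medians of -0.93, -0.80 and -0.46 on these arrays, beside -0.57, -0.11 and -0.28 for all 5264 genes above it. Complex V had the lowest median of the complexes on day 1 replicate 2, at -1.18, and complex III on day 3 replicate 1, at -1.02. Mitochondrial ribosomal proteins had medians of -0.54, -0.32 and -0.53 and complex I assembly factors 0.03, -0.19 and -0.07, on the 3 arrays in the same order. Only 27 of these 75 ribosomal protein genes and 3 of these 15 assembly factors were above the background limit, so their medians are not like for like with the members'. The 22 glycolysis genes lay at -0.83, -0.64 and -0.20, with 18, 18 and 13 of them below their group. Alveolar macrophage markers lay at -0.66, -0.10 and -0.39. Type 2 cell markers lay at -1.57, 0.76 and 0.02, endothelial markers at -1.38, 0.89 and 0.94, type 1 alveolar cell markers at -0.33, 0.98 and 0.72, and eosinophil markers at -0.16, -0.74 and 1.03. The part of these cell types in how low the members lay was not tested.

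Members differed in how low they lay on the weakly separating arrays. Of the 84 members 62 were below the other arrays of their group on all 3, 14 on 2 and 7 on 1. Cox7b2, not above the background limit, was below on none. Atp5j, the F6 subunit in the stalk of ATP synthase, lay -3.03, -0.49 and -1.79 from its group's other arrays on the weakly separating arrays of days 1, 3 and 7. Atp5o, the subunit that ties the catalytic head to the stator, lay at -2.14, -1.12 and -1.67. Sdha, the flavoprotein that oxidises succinate, lay at -2.21, -0.97 and -1.23. A few members ran the other way. Uqcrq, a small subunit of complex III, was 0.74 above its group on day 1 replicate 2. Ndufb3, an accessory subunit of complex I and not above the background limit, was 0.58 above on day 3 replicate 1. Across the 84 members the Pearson correlation of these deviations was 0.58 between the weakly separating arrays of days 1 and 7, 0.11 between those of days 1 and 3, and 0.13 between those of days 3 and 7. Over the 5264 genes above the limit the same correlations were 0.06, 0.04 and 0.32. The 84 members include 20 that were not above it, so the sets are unlike in level. Genes share an array and its processing, so these correlations are descriptions.

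**Figure D3:**
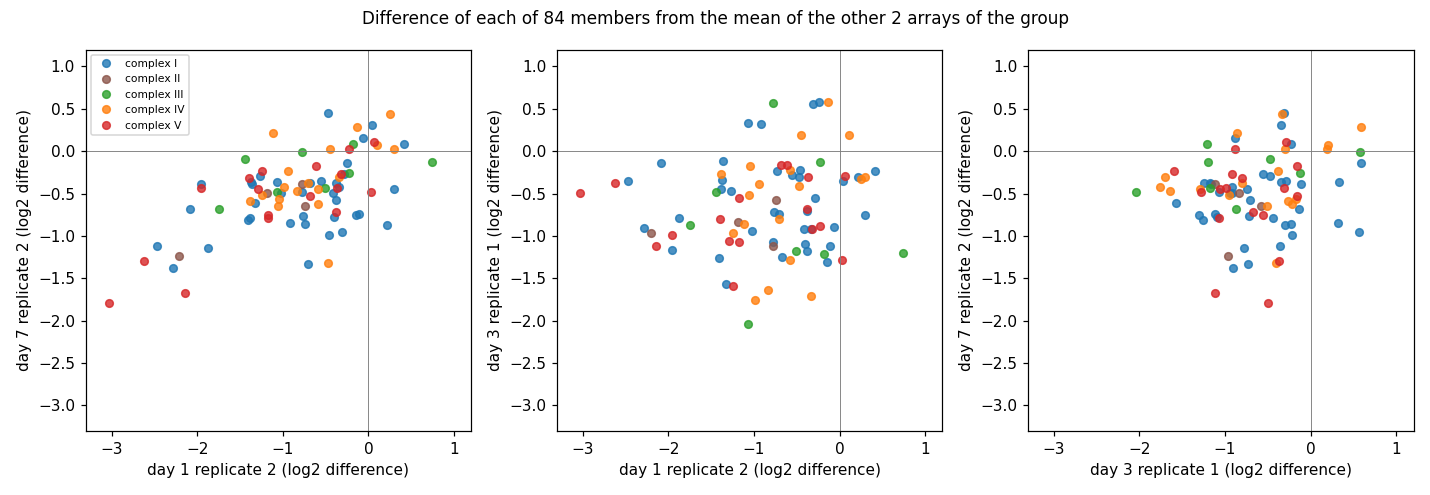
Each point is 1 of the 84 genes, coloured by complex, and each axis is its log2 difference on 1 weakly separating array from the mean of the other 2 arrays of that group. Most points lie in the lower left part of each panel, and the spread along a diagonal is clearest between the arrays of days 1 and 7 (r = 0.58).

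In complex I, the NADH dehydrogenase and the entry point of most electrons, the median of the 37 genes was -0.20, -0.12 and -0.24 on days 1, 3 and 7, and 0.07, 0.12 and -0.01 without the weakly separating arrays. Ndufv1, which holds the flavin that accepts electrons from NADH, read 7.65, 7.62 and 7.46 on intact arrays, 7.64, 7.28 and 7.69 on day 1, 6.91, 7.67 and 7.55 on day 3 and 8.04, 7.28 and 7.68 on day 7. Every group overlapped the intact range, and its differences were -0.04 ± 0.24, -0.20 ± 0.24 and 0.09 ± 0.24 (log2 difference ± SE, n = 3 arrays a group), and 0.09, 0.04 and 0.28 without the weakly separating arrays. Ndufs1, the large iron-sulfur subunit next to it, was not above the background limit and read 4.65, 5.26 and 4.40 on intact arrays against 5.86, 5.10 and 5.50 on day 3. The day 3 mean was 0.72 ± 0.35 higher (limma adjusted p = 1), and the day 3 range overlapped the intact range. Without the weakly separating arrays this difference was 0.53.

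Ndufa8, an accessory subunit on the intermembrane side of complex I, was the complex I gene whose arrays lay apart from intact on both day 1 and day 7. It read 7.28, 7.46 and 7.45 on intact arrays, 6.76, 6.53 and 7.07 on day 1, 6.41, 7.59 and 7.58 on day 3 and 7.16, 6.62 and 6.83 on day 7. All day 1 and day 7 arrays were below the lowest intact array, while day 3 replicates 2 and 3 were above the highest. The differences were -0.61 ± 0.29 on day 1 (adjusted p = 0.565) and -0.53 ± 0.29 on day 7 (adjusted p = 0.95), and -0.48 and -0.40 without the weakly separating arrays. Its promoter, printed above, carries NRF-1 letters, and a link of these to the differences was not tested. Ndufs6, an accessory subunit beside the NADH module, read 5.92, 5.88 and 5.68 on intact arrays and 5.68, 4.40 and 5.64 on day 1. Its day 1 difference of -0.59 ± 0.31 came mainly from replicate 2, and was -0.17 without the weakly separating arrays.

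Ndufa1, a small membrane subunit needed for assembly of complex I, was not above the background limit. It read 5.43, 5.05 and 4.97 on intact arrays, 3.85, 4.72 and 5.15 on day 3 and 4.93, 3.93 and 4.48 on day 7. All day 7 arrays were below the lowest intact array, and the day 7 difference was -0.70 ± 0.35 (adjusted p = 0.897), or -0.44 without the weakly separating arrays. Ndufs4, an accessory subunit whose loss causes Leigh-like disease, was also not above the background limit. It read 5.08, 4.99 and 5.02 on intact arrays and 5.16, 2.63 and 5.04 on day 1. Day 1 replicate 2 alone was low there: the difference was -0.75 ± 0.54 with it and 0.07 without the weakly separating arrays. Ndufa3, a small accessory subunit, had group means of 8.46 ± 0.06, 8.67 ± 0.35, 8.36 ± 0.44 and 8.69 ± 0.49 (SD, n = 3) in intact, day 1, day 3 and day 7 samples. Of the remaining complex I genes named by their p-values, Ndufb5 differed from intact by 0.21 on day 1, Ndufb3 by 0.34 on day 3 and Ndufb8 by 0.19 on day 7. All are accessory subunits that overlapped the intact arrays, and Ndufb3 was not above the background limit. These differences were 0.31, 0.14 and 0.16 without the weakly separating arrays, and leaving out day 1 replicate 1 alone took that of Ndufb5 to 0.043. Ndufb4 and its near-identical copy Ndufb4b may share probes and are uncertain.

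Ndufa4, long listed in complex I and since assigned to complex IV, has the paralog Ndufa4l2, a gene known for induction in low oxygen. Ndufa4 had means of 8.07 ± 0.10, 8.20 ± 0.29, 7.84 ± 0.34 and 7.83 ± 0.60 in intact, day 1, day 3 and day 7 samples. Ndufa4l2 was not above the background limit, with means of 3.15 ± 0.29, 2.96 ± 0.31, 2.86 ± 0.26 and 3.08 ± 0.28. The largest of their differences from intact was -0.30 ± 0.23, for Ndufa4l2 on day 3, which was -0.20 without the weakly separating arrays.

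In complex II, succinate dehydrogenase, which also belongs to the tricarboxylic acid cycle, the median of the 4 genes was -0.29, -0.05 and -0.19, and 0.03, 0.25 and -0.01 without the weakly separating arrays. Sdha read 5.24, 5.47 and 5.45 on intact arrays, 5.48, 3.07 and 5.06 on day 1, 4.66, 5.48 and 5.78 on day 3 and 5.19, 4.08 and 5.43 on day 7. The weakly separating arrays were the lowest of each day, all groups overlapped, and the day 1 difference of -0.85 ± 0.54 became -0.12 without them. Sdhb, the iron-sulfur subunit that passes electrons on to ubiquinone, read 7.92, 7.52 and 7.44 on intact arrays and 7.98, 7.05 and 7.68 on day 1. Its differences were -0.06 ± 0.32, 0.07 ± 0.32 and -0.08 ± 0.32, and 0.20, 0.44 and 0.05 without the weakly separating arrays. Sdhd, a membrane anchor, had means of 7.13 ± 0.13, 6.79 ± 0.68, 7.11 ± 0.49 and 6.88 ± 0.53.

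In complex III, which oxidises ubiquinol and reduces cytochrome c, the median of the 8 genes was -0.16, -0.26 and -0.35, and 0.00, 0.07 and -0.15 without the weakly separating arrays. Uqcrc1, a core subunit on the matrix side, had the largest day 1 difference of all members, -0.94 ± 0.44 (adjusted p = 0.559). It read 6.25, 6.19 and 5.76 on intact arrays, 5.90, 3.96 and 5.51 on day 1, 5.33, 6.28 and 6.12 on day 3 and 6.23, 5.29 and 5.70 on day 7. Day 1 replicate 1 lay within the intact range, and without the weakly separating arrays the day 1 difference was -0.36. Uqcrfs1, the Rieske iron-sulfur protein, read 6.83, 6.67 and 6.40 on intact arrays and 6.38, 5.76 and 6.005 on day 7. All day 7 arrays lay below the intact arrays, with a difference of -0.58 ± 0.33 (adjusted p = 0.965) and -0.44 without the weakly separating arrays.

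Uqcrh, the hinge protein that helps cytochrome c bind, read 8.85, 8.81 and 8.92 on intact arrays, 8.88, 7.94 and 9.14 on day 1, 6.96, 8.93 and 9.08 on day 3 and 9.05, 8.17 and 8.26 on day 7. Day 3 replicate 1 was low by itself, while the remaining day 3 arrays were above every intact array, and the differences were -0.21, -0.54 and -0.37 with all arrays and 0.15, 0.14 and -0.21 without the weakly separating ones. Uqcrb, a subunit near the ubiquinone site, read 8.62, 8.90 and 8.51 on intact arrays and 9.37, 8.77 and 8.83 on day 3. Here day 3 replicate 1 was the highest array, opposite to most members, and without the weakly separating arrays Uqcrb differed from intact by 0.13 on day 3. Uqcr11, the smallest subunit and not above the background limit, read 2.83, 2.98 and 2.96 on intact arrays and 3.44, 3.23 and 3.47 on day 1. Its day 1 arrays were all above the intact arrays, by 0.46 ± 0.22 on the mean (adjusted p = 0.565) and by 0.53 without the weakly separating arrays, at levels where the array does not separate signal from background.

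In complex IV, cytochrome c oxidase, which hands electrons to oxygen, the median of the 18 genes was -0.21, -0.14 and -0.18, and 0.01, 0.01 and -0.08 without the weakly separating arrays. Cox4i1, the common form of the largest nuclear subunit, read 7.80, 7.79 and 7.79 on intact arrays, 8.13, 7.67 and 7.89 on day 1, 6.0, 7.86 and 7.55 on day 3 and 7.78, 7.27 and 7.34 on day 7. The SD of the intact arrays was 0.01, and the day 7 arrays lay below them, replicate 1 only just. The day 3 difference of -0.66 ± 0.37 became -0.09 without the weakly separating arrays. Cox4i2, the form known from lung and from low oxygen, was not above the background limit. It read 3.25, 3.64 and 3.73 on intact arrays, 3.03, 3.00 and 3.86 on day 1, 3.43, 3.34 and 3.14 on day 3 and 2.68, 2.92 and 3.11 on day 7. All day 7 arrays were below the intact arrays. The day 7 difference was -0.64 ± 0.24 (unadjusted p = 0.0194, adjusted p = 0.757), with all arrays the only member difference against intact with an unadjusted p under 0.05, and it was -0.65 without the weakly separating arrays.

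Cox5a, a core-binding subunit of complex IV, read 7.80, 7.37 and 7.42 on intact arrays and 7.30, 6.81 and 7.21 on day 7, which did not overlap, with a difference of -0.42 ± 0.34, or -0.27 without the weakly separating arrays. Cox7c, a small membrane subunit, read 10.23, 10.23 and 10.17 on intact arrays, 9.95, 9.36 and 10.20 on day 1, 9.52, 10.35 and 10.29 on day 3 and 10.26, 9.73 and 9.95 on day 7. Its differences of -0.37, -0.16 and -0.23 were -0.14, 0.11 and -0.11 without the weakly separating arrays. Of the forms used in most tissues, Cox6a1 had means of 9.60 ± 0.11, 9.30 ± 0.82, 9.53 ± 0.16 and 9.65 ± 0.38, Cox7a2 of 6.43 ± 0.13, 6.13 ± 0.67, 6.11 ± 1.02 and 6.19 ± 0.33, and Cox8a of 9.18 ± 0.09, 9.14 ± 0.72, 9.07 ± 0.57 and 9.03 ± 0.48. Their heart and muscle counterparts Cox6a2, Cox7a1 and Cox8b were not above the background limit in any group. Cox6a2 differed from intact by -0.40 ± 0.22 on day 1 and Cox7a1 by 0.30 ± 0.22 on day 3, both overlapping the intact arrays. Cox6b2 and Cox7b2, forms known from testis, differed by -0.63 ± 0.38 on day 3 and by 0.23 ± 0.18 on day 1. Of these Cox7b2 was not above the background limit. The differences of Cox6a2, Cox7a1, Cox6b2 and Cox7b2 were -0.48, 0.11, -0.49 and 0.19 without the weakly separating arrays.

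In complex V, ATP synthase, the median of the 17 genes was -0.32, -0.15 and -0.30, and 0.01, 0.10 and -0.13 without the weakly separating arrays. The alpha and beta subunits form the catalytic head. Atp5a1, alpha, read 9.42, 9.43 and 9.34 on intact arrays, 9.47, 8.99 and 9.24 on day 1, 9.19, 9.45 and 9.55 on day 3 and 9.43, 9.08 and 9.60 on day 7, with differences of -0.16, 0.00 and -0.03 and an SE of 0.19, and of -0.04, 0.10 and 0.12 without the weakly separating arrays. Atp5b, beta, read 9.62, 9.44 and 9.37 on intact arrays, 9.29, 8.996 and 9.34 on day 1, 8.60, 9.48 and 9.56 on day 3 and 9.39, 9.10 and 9.35 on day 7. Its day 1 arrays did not overlap intact, with a difference of -0.27 ± 0.24 (adjusted p = 0.731), or -0.16 without the weakly separating arrays.

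The membrane ring of subunit c is encoded by 3 genes whose mature protein is the same. Atp5g1 read 8.73, 8.29 and 8.45 on intact arrays and 7.16, 7.88 and 8.54 on day 1, where replicate 1 was the lowest, so the day 1 difference was -0.63 with all arrays and -0.64 without the weakly separating ones. Atp5g2 differed from intact by -0.32, -0.15 and -0.36 and Atp5g3 by -0.50, 0.01 and -0.14, and without those arrays they differed by 0.11, 0.20 and -0.21 and by 0.37, 0.14 and 0.29. Atp5j read 6.53, 6.32 and 6.41 on intact arrays, 6.72, 3.59 and 6.52 on day 1, 5.99, 6.26 and 6.71 on day 3 and 7.05, 4.87 and 6.25 on day 7. Its day 1 SD of 1.75 was the largest of any member in any group, and the day 1 difference was -0.81 ± 0.70 with all arrays and 0.19 without the weakly separating ones. Atp5h, a stator subunit, had means of 9.36 ± 0.07, 9.41 ± 0.38, 9.39 ± 0.13 and 9.34 ± 0.25. Atp5k, a membrane subunit not above the background limit, differed by -0.38 ± 0.24 on day 3, which was -0.08 without the weakly separating arrays, and lay wholly below intact on day 7. Atpif1, which encodes the inhibitor of ATP synthase and is no member, had means of 7.71 ± 0.29, 7.79 ± 0.36, 7.83 ± 0.28 and 7.90 ± 0.38, with differences of 0.08, 0.12 and 0.20.

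**Figure D4:**
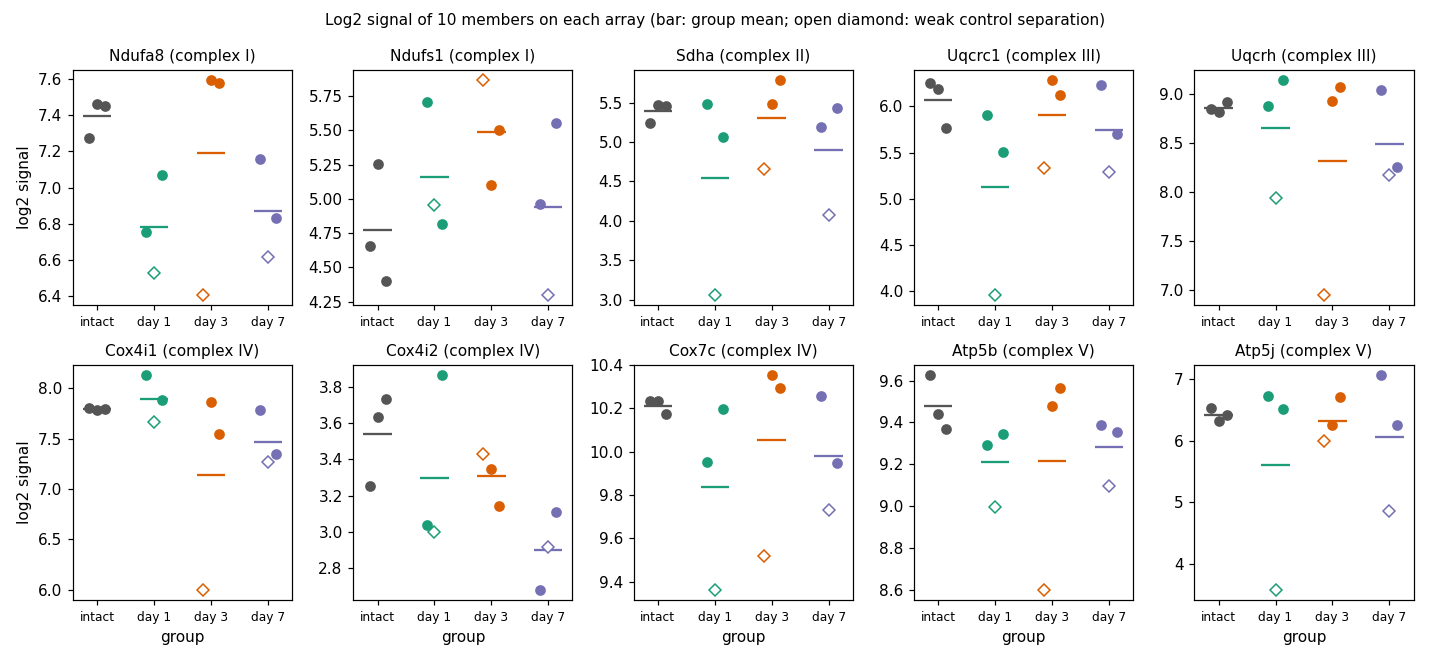
Log2 signal of 10 genes on each array by group, with bars for group means and open diamonds for the 3 weakly separating arrays. The scale differs between panels. For Sdha, Uqcrc1 and Atp5j the day 1 diamonds lie at 3.07, 3.96 and 3.59, below all other arrays, whereas for Cox4i2 the 3 day 7 arrays at 2.68 to 3.11 lie below the intact arrays at 3.25 to 3.73.

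Groups that do not overlap are counted as a description. On day 1 6 members lay wholly below intact (8.94% of all probe sets did) and 1 wholly above, Uqcr11 (7.42%). The 6 were Ndufa8, Ndufb6, Ndufc2, Ndufs6, Ndufv3 and Atp5b. On day 3 only Cox6b2 lay below (6.68% of all probe sets) and none above (7.19%). On day 7 13 of the 84 lay below (8.15%) and none above (6.11%). These 13 were the complex I genes Ndufa1, Ndufa8 and Ndufa12, the complex III genes Uqcrc2, Uqcrfs1 and Uqcrq, the complex IV genes Cox4i1, Cox4i2 and Cox5a and the complex V genes Atp5c1, Atp5e, Atp5k and Atp5l, and none passed the adjusted test. The share of members wholly below intact was under that of all probe sets on days 1 and 3, and above it on day 7. These shares are not like for like, since 64 of the 84 members were above the background limit and the reference holds all probe sets. Of the members in these counts, Ndufv3, Uqcr11, Ndufa1, Cox4i2, Atp5e and Atp5k were not above the background limit.

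Between the days after resection no member passed either. Day 3 against day 1 had a median member difference of 0.12, day 7 against day 1 of 0.05 and day 7 against day 3 of -0.12, and 0.04, -0.11 and -0.17 without the weakly separating arrays. In these comparisons 32, 38 and 55 of the 84 members had a difference below 0. Of the 64 members above the background limit 37.5%, 42.2% and 64.1% did, against 31.3%, 33.5% and 57.2% of all genes above it. Without the weakly separating arrays 34, 56 and 64 of the 84 members had a difference below 0. The shares above the limit were then 40.6%, 67.2% and 76.6% of members, against 45.5%, 45.3% and 50.2% of genes. With all arrays the test called 0 members in each comparison (0% of all probe sets in each), and the smallest adjusted p was 0.474, 0.741 and 0.95. Without the weakly separating arrays it again called 0 members in each, and 0.027%, 0% and 0.018% of all probe sets. Unadjusted p under 0.05 was reached by 4 members for day 3 against day 1 (9.6% of all probe sets), by 0 for day 7 against day 1 (6.74%) and by 2 for day 7 against day 3 (5.12%). The 4 were Cox6a2 at 0.54, Ndufs6 at 0.73, Uqcr11 at -0.49 and Uqcrb at 0.53, which were 0.73, 0.47, -0.53 and 0.08 without the weakly separating arrays. The 2 were Ndufv2, an iron-sulfur subunit of the NADH module, at -0.75 ± 0.30, and Atp5l, a membrane subunit of ATP synthase, at -0.38 ± 0.17, which were -0.36 and -0.51 without those arrays.

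The number of arrays and the spread between them limited what these comparisons could show. The median SE of a member's difference was 0.32. The 95% interval of the difference lay within a 2-fold change in either direction for 49 of 84 members on day 1, 55 on day 3 and 45 on day 7. Without the weakly separating arrays the median SE was 0.20 and the intervals of 81, 82 and 80 members lay within that range. An absent call therefore does not show equal levels: for Atp5j the day 1 interval ran from -2.34 to 0.71.

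**Figure D5:**
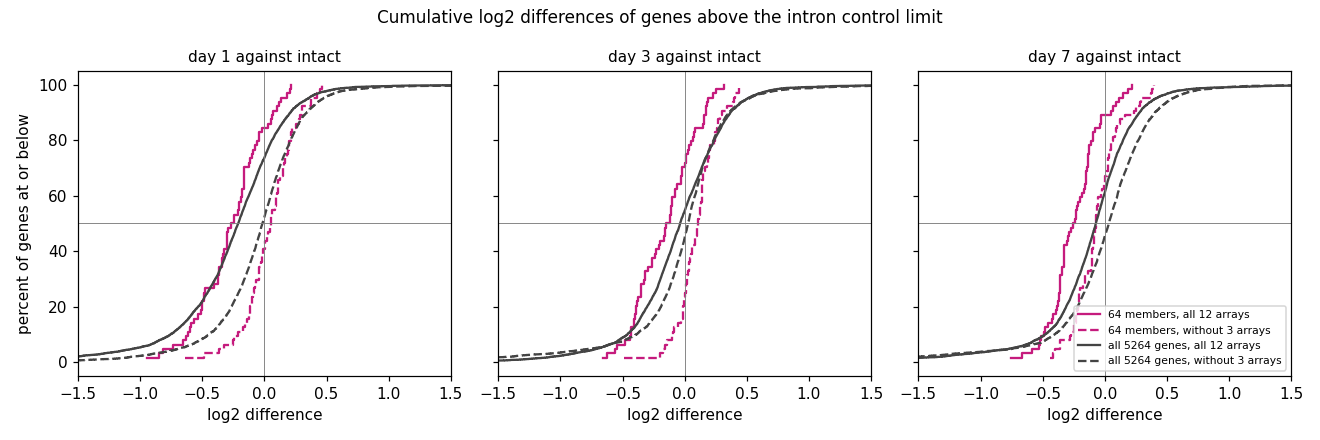
Percent of genes at or below each log2 difference from intact, for the 64 members and for all 5264 genes above the background limit, with all 12 arrays (solid) and without the 3 weakly separating arrays (dashed). With all arrays the members' curve crosses 50% left of 0 on every day (medians -0.26, -0.14 and -0.25), and without those arrays it lies further right (0.05, 0.11 and -0.07).

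Genes that build, feed or regulate the chain are given by list. None of the 13 subunits encoded in mitochondrial DNA was measured by a named probe set. No gene of these lists passed the adjusted test at any day. Of 15 complex I assembly factors measured, 6, 5 and 5 were below intact on days 1, 3 and 7, with medians of 0.08, 0.09 and 0.04, beside -0.20, -0.12 and -0.24 for the subunits themselves. The medians were 0.03, 0.10 and 0.04 for these factors and 0.07, 0.12 and -0.01 for the subunits without the weakly separating arrays. The 19 complex IV assembly factors had medians of -0.04, 0.03 and -0.12, the 6 of complex III -0.21, 0.05 and -0.12, the 5 of complex V -0.15, 0.10 and -0.10 and the 4 of complex II -0.08, -0.07 and -0.09. Without the weakly separating arrays the medians were -0.02, 0.02 and -0.02 for complex IV factors, -0.04, 0.03 and 0.22 for complex III, 0.05, 0.19 and -0.08 for complex V and -0.08, -0.07 and -0.06 for complex II. Most of these assembly genes were not above the background limit. Among them Ndufaf8, a complex I assembly factor, differed from intact by -0.41 ± 0.18 on day 7, and Uqcc2, a complex III assembly factor, by -0.55 ± 0.25, and these were -0.46 and -0.33 without the weakly separating arrays. Cox20, which helps mature a complex IV core subunit, differed by -0.84 ± 0.39 on day 1 and by -0.45 without the weakly separating arrays.

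The 16 measured electron carriers and feeders had medians of -0.19, 0.01 and -0.02, and of -0.01, 0.07 and 0.10 without the weakly separating arrays. Cycs, cytochrome c, read 8.69, 8.61 and 8.59 on intact arrays and 8.53, 8.16 and 8.22 on day 7, wholly below, with a difference of -0.33 ± 0.17 (adjusted p = 0.91), or -0.26 without those arrays. Gpd2, which feeds electrons of glycerol phosphate into ubiquinone, read 7.37, 6.99 and 6.70 on intact arrays and 6.55, 4.18 and 6.55 on day 1. All day 1 arrays were below intact, and the difference was -1.26 ± 0.53 (adjusted p = 0.534), or -0.47 without the weakly separating arrays. The 75 mitochondrial ribosomal proteins had medians of -0.02, -0.08 and -0.08, and of 0.17, 0.09 and 0.05 without those arrays. Of these Mrpl38 differed by -0.75 ± 0.23 on day 3 (adjusted p = 0.816) and by -0.69 without those arrays.

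Of 17 measured regulators of mitochondrial biogenesis 11, 5 and 11 were below intact, with medians of -0.20, 0.08 and -0.06, or -0.07, 0.04 and 0.08 without the weakly separating arrays. Polg2, the accessory subunit of the mitochondrial DNA polymerase, read 5.61, 5.33 and 5.73 on intact arrays, 4.62, 4.06 and 5.01 on day 1, 6.31, 5.09 and 5.50 on day 3 and 4.77, 4.90 and 4.82 on day 7. Its day 1 and day 7 arrays were all below intact, by -0.99 ± 0.30 (adjusted p = 0.362) and -0.73 ± 0.30 (adjusted p = 0.8), and by -0.74 and -0.76 without the weakly separating arrays. Tfam, which packages and transcribes mitochondrial DNA, was not above the background limit and read 2.96, 2.93 and 3.06 on intact arrays and 2.31, 2.69 and 2.78 on day 1, a difference of -0.39 ± 0.16 (adjusted p = 0.534) that was -0.44 without those arrays. Tfb1m, a mitochondrial ribosomal RNA methyltransferase, differed by 0.78 ± 0.28 on day 1 (adjusted p = 0.449) and by 0.59 without those arrays, also without passing the background limit.

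Genes of neighbouring pathways were also described by list. The 18 tricarboxylic acid cycle genes had medians of -0.20, 0.04 and -0.10, and the 11 mitochondrial antioxidant and uncoupling genes -0.28, 0.07 and -0.11. The 22 glycolysis genes had medians of -0.09, -0.05 and -0.10. Without the weakly separating arrays the medians were 0.04, 0.12 and 0.08 for the tricarboxylic acid cycle, 0.11, 0.14 and 0.06 for the antioxidant and uncoupling genes and 0.15, 0.16 and 0.05 for glycolysis. Among them Pfkp, the platelet form of phosphofructokinase, read 8.23, 8.16 and 8.07 on intact arrays, 7.67, 7.21 and 7.09 on day 1, 7.63, 7.68 and 8.15 on day 3 and 7.88, 7.52 and 7.71 on day 7. Its day 1 and day 7 arrays were all below intact, with differences of -0.83 ± 0.20 (adjusted p = 0.27) and -0.45 ± 0.20 (adjusted p = 0.85), and -0.78 and -0.36 without the weakly separating arrays. Hk2, the inducible hexokinase, differed by -0.96 ± 0.43 on day 1 and by -0.40 without those arrays.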

How the data were processed

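For each probe set the authors deposited a log2 signal. The submitters' processing notes name RMA and the Transcriptome Analysis Console; versions and genome build are not given in the sources used here. RMA equalises the distribution of signal over arrays, so a shift of all genes would not show. Of 28846 probe sets, 6640 controls described the arrays and 22206 were tested; 19572 had 1 gene symbol and 2634 none. A gene was taken by its probe set of highest mean. One limma 3.58.1 model (R 4.3.3) with group as its only term was fitted to all 12 arrays, two-sided, with Benjamini-Hochberg adjustment over all tested probe sets and a threshold of 0.05. The fit was run on simulated data with independent noise on each array. That run held no shift of a whole array and required recovery only of changes larger than any member difference from intact. It therefore does not bear on differences of the members' size. Members, lists and settings were chosen with earlier results of these data known; the limit of 0.84 for weak control separation was set after values were seen. Genes were named by role (core subunits, isoform pairs, c-ring genes, the inhibitor), by the 2 highest and 1 lowest mean of a complex, by the 4 smallest p-values per direction and comparison, and by up to 3 smallest p-values per pathway list; members singled out for their behaviour on single arrays were chosen after their values were seen. Replicate numbers were not used to pair the arrays in this model. Of 18 same-number pairs across groups, 3 had a correlation of deviations over 0.1 (range -0.24 to 0.26). Pairs of unlike number were not compared, so these values cannot show whether the numbers pair the arrays. Alternatives covered normalization, dim probe sets, moderation, array weights, the replicate block, the groups fitted and the arrays left out.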

Additional observations from a re-analysis of the deposited data

How the results depend on the processing

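In every alternative 0 members passed the threshold, so what moved was the count over all probe sets and the members' medians. Probe sets past the threshold on days 1, 3 and 7 against intact numbered 0, 1 and 4. With array weights they numbered 43, 298 and 402, with 7 for day 7 against day 3. Without the 3 weakly separating arrays, a setting chosen after seeing the data, they numbered 71, 252 and 280, with 6 for day 3 against day 1 and 4 for day 7 against day 3. Renormalizing quantiles gave 4 on day 3, trend and robust moderation 4 on day 3, and the filter on dim probe sets 0 on days 3 and 7. Fitting only the groups compared gave 0 on day 3 and 48 on day 7. With the replicate number as a block the counts were 0 on day 3 and 8 on day 7. No label says that the numbers pair the arrays. Leaving out the 3 arrays with the labelling control dap above 5 (day 3 replicate 1 and day 7 replicates 2 and 3), also chosen after seeing the data, leaves day 7 with replicate 1 alone, whose spread is then assumed to be like that of the other groups, and gave 0 on day 7. Leaving out single arrays gave 0 to 12 on day 1, 0 to 7 on day 3, 0 to 18 on day 7, 0 to 3 for day 3 against day 1 and 0 to 3 for day 7 against day 3.

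When 1 array of the day was left out, the members' median on day 1 was 0.04 (replicate 2 out) or -0.36 (replicate 1 out), and -0.03 with array weights. On day 3 it was 0.11 when replicate 1 was left out, -0.22 or -0.24 when replicate 2 or 3 was, and 0.01 with array weights. On day 7 it was -0.07 when replicate 2 was left out, -0.43 when replicate 1 was, and 0.12 without the dap arrays, which is the difference of replicate 1 alone from intact. Between days the medians ranged over all settings from -0.17 to 0.31 for day 3 against day 1, from -0.27 to 0.38 for day 7 against day 1 and from -0.35 to 0.09 for day 7 against day 3. The cause was not tested. Of the members named by p-value, Ndufb8 on day 7 turned to -0.032 without the dap arrays, again the value of 1 array, and Uqcr11 on day 7 to -0.027 with array weights. Leaving out single arrays took Ndufa3 on day 7 from -0.063 to 0.37 and Uqcr11 on day 7 from -0.12 to 0.31, the low ends when replicate 1 of day 7 was out. Members below the intron limit, 20 of 84, carry little information on level.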
